A study of Mus musculus with 6 samples.

Results

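The 37 genes described here make up the contractile and excitable machinery of skeletal and heart muscle, and were chosen by name out of 26220 mouse genes with a curated RefSeq transcript. All 37 were found in that background. By role they are 5 myogenic transcription factors, 6 myosin heavy chains, 3 myosin light chains, 7 troponin subunits, 10 actins and scaffold proteins of the sarcomere, and 6 genes of calcium release, creatine kinase and the acetylcholine receptor of the endplate. DNA methylation was measured by MeDIP-seq, in which an antibody captures fragments that carry methylated cytosines and the captured fragments are sequenced. There were 6 groups of ICR mouse cells with 1 library each, all labelled as 3 to 5 passages. The negative control was MEF, fibroblasts from E13.5 embryos. Induced neurons made from MEF were taken at 1, 3, 5 and 7 dpi, a term the labels do not spell out. The positive control was primary neurons grown from the hippocampus of 1-day-old pups. The agents that converted the fibroblasts, the share of cells converted and any sorting step are not stated in the labels. A mixed population can therefore lie behind every library, and more methylated DNA per cell cannot be told apart from more cells with methylated DNA.

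Skeletal muscle identity is set by basic helix-loop-helix factors of the MyoD family, which bind E-boxes together with MEF2 proteins and switch on genes of the sarcomere, of calcium storage and release, and of the neuromuscular junction. The muscle program is a known alternative fate when fibroblasts are converted to neurons. Methylation of a promoter rich in CpG usually goes with a silent gene, while methylation of CpG-poor promoters and of gene bodies has a looser relation to expression. RNA was not measured in these libraries, so the level of methylated DNA is all that is described.

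RefSeq promoter windows, which run from 250 bases before to 50 bases after a start on GRCm38.p6, were matched for 31 of the 37 genes and gave 36 windows. The 5 windows printed here belong to genes on which the results turn. Myf5 was listed in both directions, Chrng and Tnnc2 higher than MEF, and Ryr1 and Actn2 lower. Each is written 5' to 3' on the strand of the gene, and capitals mark every CpG, the dinucleotide that carries the methylation.
Myf5, chr10:107486085-107486384, minus strand: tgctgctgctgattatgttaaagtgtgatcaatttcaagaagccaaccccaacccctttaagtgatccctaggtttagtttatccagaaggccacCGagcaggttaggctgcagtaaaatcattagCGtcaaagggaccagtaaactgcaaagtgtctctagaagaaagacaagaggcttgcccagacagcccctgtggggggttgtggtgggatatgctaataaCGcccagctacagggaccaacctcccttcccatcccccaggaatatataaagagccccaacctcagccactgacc
Chrng, chr1:87205561-87205860, plus strand: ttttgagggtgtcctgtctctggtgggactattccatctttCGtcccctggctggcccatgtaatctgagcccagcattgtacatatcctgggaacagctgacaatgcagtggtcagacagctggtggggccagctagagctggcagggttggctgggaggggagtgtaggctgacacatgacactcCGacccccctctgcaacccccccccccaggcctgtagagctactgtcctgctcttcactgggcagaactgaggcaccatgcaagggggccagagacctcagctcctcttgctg
Tnnc2, chr2:164779685-164779984, minus strand: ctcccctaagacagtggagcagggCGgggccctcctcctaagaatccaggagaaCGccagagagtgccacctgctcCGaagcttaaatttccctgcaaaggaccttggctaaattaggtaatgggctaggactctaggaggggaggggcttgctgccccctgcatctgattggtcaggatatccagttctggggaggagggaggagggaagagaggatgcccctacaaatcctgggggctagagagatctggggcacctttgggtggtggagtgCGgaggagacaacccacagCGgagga
Ryr1, chr7:29125102-29125401, minus strand: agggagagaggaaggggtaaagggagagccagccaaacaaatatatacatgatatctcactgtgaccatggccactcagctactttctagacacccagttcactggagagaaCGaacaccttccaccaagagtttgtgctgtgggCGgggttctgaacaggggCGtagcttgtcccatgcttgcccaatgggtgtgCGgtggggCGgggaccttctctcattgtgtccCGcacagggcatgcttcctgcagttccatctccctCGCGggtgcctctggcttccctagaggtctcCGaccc
Actn2, chr13:12340683-12340982, minus strand: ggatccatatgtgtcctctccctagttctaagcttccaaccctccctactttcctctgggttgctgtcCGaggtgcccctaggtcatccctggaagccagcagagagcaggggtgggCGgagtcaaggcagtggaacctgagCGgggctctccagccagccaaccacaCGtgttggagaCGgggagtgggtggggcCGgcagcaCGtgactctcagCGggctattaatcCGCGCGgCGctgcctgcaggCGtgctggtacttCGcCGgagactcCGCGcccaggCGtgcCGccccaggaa
Of these, Chrng held 2 CpGs, Myf5 held 3, Tnnc2 held 5, Ryr1 held 9 and Actn2 held 19. Over all 36 windows the number ran from 1 to 25 with a median of 6, beside a median of 7 in 32851 windows of all genes. The muscle windows thus had about as few CpGs as a typical promoter window. Most listed regions lay outside these short windows. Regions overlapped a matched window of their gene by 36 bases at Tnnc2 and by 16 bases at Myh7, and no other matched window was overlapped. The starts of Myl1 and Tnnt2 that listed regions span have no window here, and Tnnt3 has none. Overlap with a promoter window was therefore not assessed at those starts.

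The authors listed promoter regions, centred at most 2 kb from an annotated transcription start site (TSS), whose reads in a library were higher or lower than in MEF. In this set 19 of the 37 genes (51.4%) had a region in at least 1 of the 5 comparisons, beside 43.5% of all genes. Of these, 4 were lower only (Tnnt3, Actn2, Casq1 and Ryr1; 10.8% of the set beside 9.93% of all genes). Another 12 were higher only (32.4% beside 25.9%), and Myf5, Myl1 and Casq2 were listed in both directions (8.11% beside 7.67%). Each of these shares is thus close to that of all genes, or above it by less than 10 percentage points. They had 52 regions, 30 lower and 22 higher, which fall on 28 distinct segments of the genome, 8 lower and 20 higher. The lower regions were therefore the same few segments listed again in library after library, whereas most higher segments were listed once. In 45 of the 52 regions (86.5%) the lower library had 0 reads, as it had in 89.5% of all listed regions. The reads in the higher library ran from 11 to 23 with a median of 14, beside 13 over all listed regions of the series. All values are few reads from 1 library per group, so none has a replicate check and no test between conditions was made. All comparisons share the MEF library, so a high or low MEF value enters each of them.

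**Figure D1:**
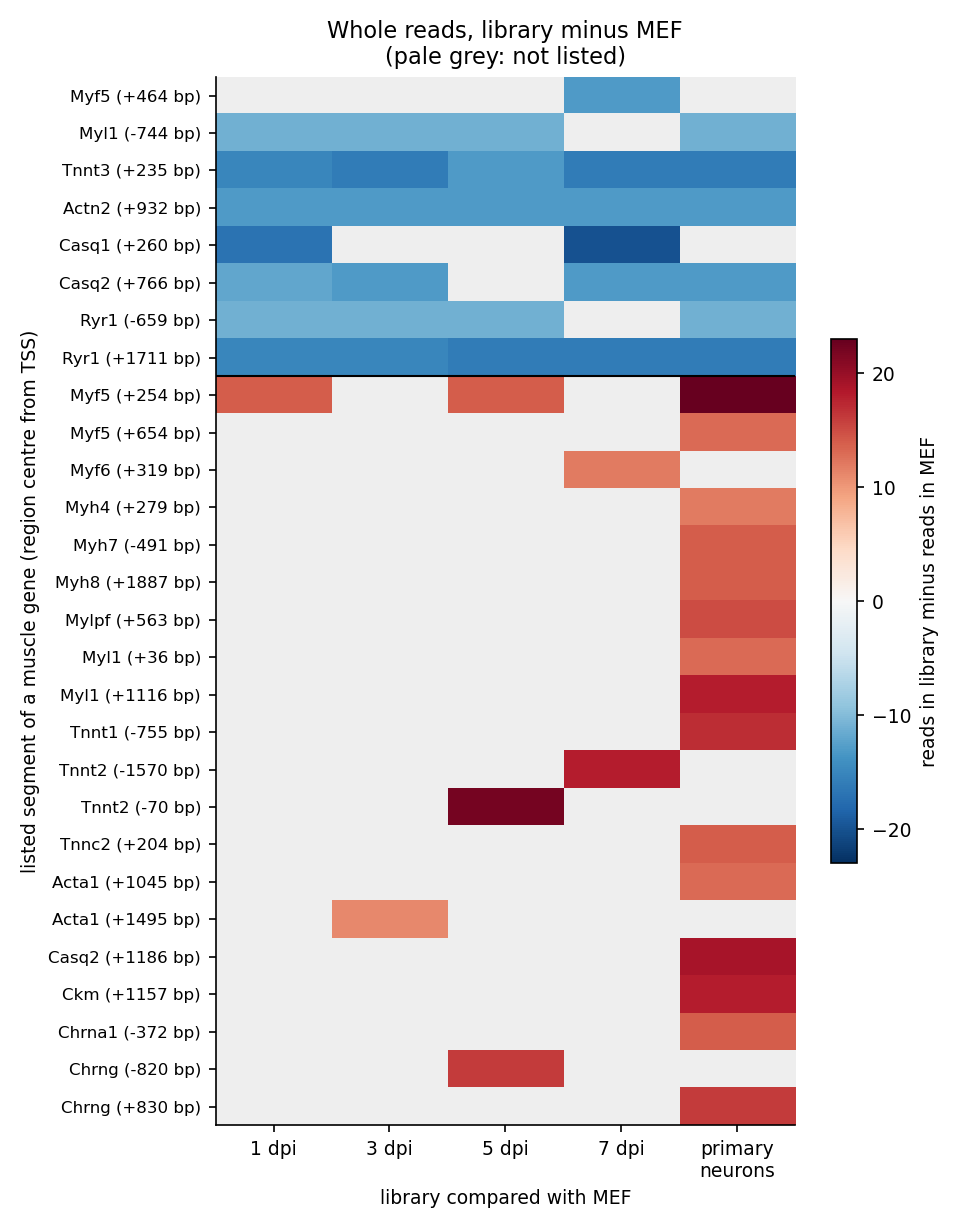
Whole reads in the library minus whole reads in MEF (colour) for the 28 listed segments of the muscle genes (vertical axis, with the distance of the region centre from the TSS) in the 5 comparisons (horizontal axis); pale grey means not listed, and the black line divides the 8 lower from the 20 higher segments. The lower segments recur across comparisons, and most red cells stand in the primary neuron column.

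The counts of listed genes by role that follow stand beside 43.5% of all genes listed in any comparison. The role groups hold 3 to 10 genes, too few to read a difference from, and were not tested. Among the myogenic transcription factors, Myf5 and Myf6 were listed and Myod1, Myog and Mef2c were not. Myf5, which acts at the start of myogenic commitment in the embryo, was the member whose direction changed between libraries. A segment centred 254 bp inside the gene (chr10:107485761-107486000 in mm10, within the RefSeq span of Myf5) had 14 reads at 1 dpi against 0 in MEF, and again 14 against 0 at 5 dpi. In primary neurons the same segment, listed up to base 107486040, had 23 reads against 0, at least 7.16-fold higher with MEF set to a floor of 3 reads. This was the region with the most reads of the set. A further region of Myf5 in primary neurons (chr10:107485381-107485580) had 13 reads against 0. Between these lies a region listed lower at 7 dpi (chr10:107485561-107485780), with 0 reads against 13 in MEF. It overlaps each of the higher segments by 20 bp. So MEF had reads in the middle of this stretch and none in the regions listed on its flanks. Primary neurons had reads on the flanks and also in the middle, where no region of theirs was listed. The summit of their Myf5 peak, described below, lies in that middle region, 438 bp inside the gene. At 3 dpi no region of Myf5 was listed. Myf6, which lies beside Myf5 and works late in muscle differentiation, was listed only at 7 dpi, where a region 319 bp inside the gene (chr10:107494221-107494600) had 12 reads against 0 in MEF, at least 5.33-fold higher.

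Of the 6 myosin heavy chains, the motor proteins of the thick filament, 3 were listed, all in primary neurons and all higher. Of all genes 20.4% were in that list. Myh4, the chain of the fastest adult fibres, had 12 reads against 0 at chr11:67237901-67238280. Myh8, the perinatal chain, had 14 against 0 at chr11:67278821-67279200, and Myh7, the slow and cardiac chain, had 14 against 0 upstream of its start at chr14:54994861-54995220. With MEF at the floor, these are at least 3.73-fold, 4.36-fold and 4.36-fold. Myh1, Myh2 and Myh3, chains of adult fast and embryonic fibres, were in no promoter list.

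Of the 3 light chains, Myl1 and Mylpf were listed. Myl1, the fast alkali light chain, has more than 1 annotated start, and its values differed between them. Upstream of the distal start (chr1:66945641-66945960) MEF had 11 reads, and primary neurons and the libraries of 1, 3 and 5 dpi had 0. Among the 52 regions of the set 11 is the lowest count in the higher library. That region overlaps the RefSeq span of Myl1, which thus extends beyond the distal start assigned by the authors. At the proximal start, 10140 bp or more away, primary neurons had 13 reads against 0 across the TSS (chr1:66935161-66935500) and 18 against 0 further inside the gene (chr1:66934061-66934440), the latter at least 5.60-fold higher. Primary neurons were thus lower than MEF near the distal start and higher at the proximal start of this gene. Mylpf, the fast regulatory light chain, had 15 reads against 0 in primary neurons (chr7:127212001-127212340). Myl4, the atrial and embryonic light chain, was not listed.

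Of the 7 troponin subunits, which make the thin filament respond to calcium, 4 were listed. Tnnt3, the fast skeletal troponin T, was lower than MEF in all 5 comparisons at 1 segment just inside the gene (chr7:142498881-142499260), which also overlaps the gene Prr33. There was 1 read at 1 dpi, and none at 3 dpi, at 7 dpi or in primary neurons, against 16 in MEF each time. At 5 dpi a shorter stretch had 0 against 13. At 1 dpi the ratio was 16-fold, with an exact 95% counting interval from 2.49 to 671, so its size is hardly fixed by these reads. The other listed troponins stood on the opposite side. Tnnt2, the cardiac troponin T, has more than 1 annotated start. It had 22 reads against 0 at 5 dpi in a region that spans the TSS the authors assigned (chr1:135840601-135840980), at least 7.33-fold higher. At 7 dpi it had 18 against 0 in another region, centred at -1570 bp from that TSS (chr1:135839121-135839460). Both regions overlap the RefSeq span of the gene. Its RefSeq promoter windows lie further upstream, at chr1:135836084-135836383 and chr1:135836739-135837038. The 5 dpi and 7 dpi regions are separate segments, and neither was listed in primary neurons. In the authors' deposited tables, the Tnnt2 regions have q-values of 3.96e-05 at 5 dpi and 4.71e-05 at 7 dpi, from reads of single libraries. Tnnc2, the fast troponin C, had 14 against 0 in primary neurons, in a region that reaches into the printed promoter window (chr2:164779341-164779720). Tnnt1, the slow troponin T, had 18 against 1 there (chr7:4516541-4516920), a ratio of 16.8 with an interval from 2.65 to 700. Tnni1, Tnni2 and Tnnc1, which encode the inhibitory subunits of skeletal muscle and the slow and cardiac troponin C, were not listed.

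Among the 10 actins and scaffold proteins Acta1 and Actn2 were listed, beside 43.5% of all genes in any comparison. Actn2, the alpha-actinin that anchors thin filaments in the Z disc, was lower in all 5 comparisons at the same place, 932 bp inside the gene (chr13:12339681-12339920). MEF had 13 reads and every other library 0, at 7 dpi over a stretch of 200 bp rather than 240 bp. Against the floor of 3 reads this is at least 4.33-fold lower at 1, 3 and 5 dpi. Primary neurons were at least 4.64-fold lower and the 7 dpi library at least 3.25-fold, bounds that differ through the authors' scaling, since the reads are the same. The CpG-rich Actn2 window printed above does not reach this segment. Acta1, the skeletal alpha-actin, was higher at 3 dpi with 11 reads against 0 (chr8:123893141-123893420) and in primary neurons with 13 against 0 in a neighbouring region (chr8:123893541-123893920). Actc1, Des, Ttn, Neb, Mybpc1, Mybpc2, Myom1 and Myom2, which encode cardiac actin, desmin and the large filament and cross-bridge proteins, were in no promoter list.

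All 6 genes of calcium release, creatine kinase and the acetylcholine receptor were listed, beside 43.5% of all genes in any comparison. A group of 6 genes is too small to read a difference from. Ryr1, the calcium release channel of the sarcoplasmic reticulum, was lower in all 5 comparisons. Its segment about 1.7 kb inside the gene (chr7:29123301-29123580) had 16 reads in MEF each time, against 1 in the 1 and 3 dpi libraries and 0 in the other libraries. A second segment, upstream of the TSS (chr7:29125661-29126000), had 11 reads in MEF against 0 in primary neurons and in induced neurons of 1, 3 and 5 dpi. With Tnnt3 and Actn2, Ryr1 was thus among the 3 genes (8.11%) lower than MEF in every comparison, beside 3.92% of all genes. The 5 comparisons share the MEF library, and 3 genes are too few to read a difference from. Casq1, the calcium store of fast fibres, was lower at 1 dpi with 2 reads against 19 and at 7 dpi with 1 against 21. The 2 regions overlap within chr1:172219441-172219820. The Casq1 ratios are 9.5 (interval 2.29 to 84.1) at 1 dpi and 15.7 (2.53 to 651) at 7 dpi. Casq2, the cardiac calsequestrin, had 0 reads in primary neurons and in induced neurons of 1, 3 and 7 dpi within chr3:102087041-102087400, where MEF had 12 at 1 dpi, over a shorter stretch, and 13 in the others. Yet 100 bp further into the gene (chr3:102087501-102087780) primary neurons had 20 reads against 1 in MEF, a ratio of 18.7 with an interval from 2.99 to 774. Neighbouring stretches of Casq2 thus lay on opposite sides of MEF in the same pair of libraries.

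The remaining genes of this group were listed higher. Ckm, the muscle creatine kinase, had 18 reads in primary neurons against 0 (chr7:19412061-19412440), at least 5.60-fold higher. Chrna1, the alpha subunit of the muscle acetylcholine receptor, had 14 against 0 there, upstream of its start (chr2:73580601-73580820). Chrng, the gamma subunit of the fetal form of that receptor, had 16 against 0 at 5 dpi upstream (chr1:87204841-87205140) and 16 against 0 in primary neurons inside the gene (chr1:87206481-87206800). As for Tnnt2, the region of Chrng listed at 5 dpi was not the region listed in another library.

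**Figure D2:**
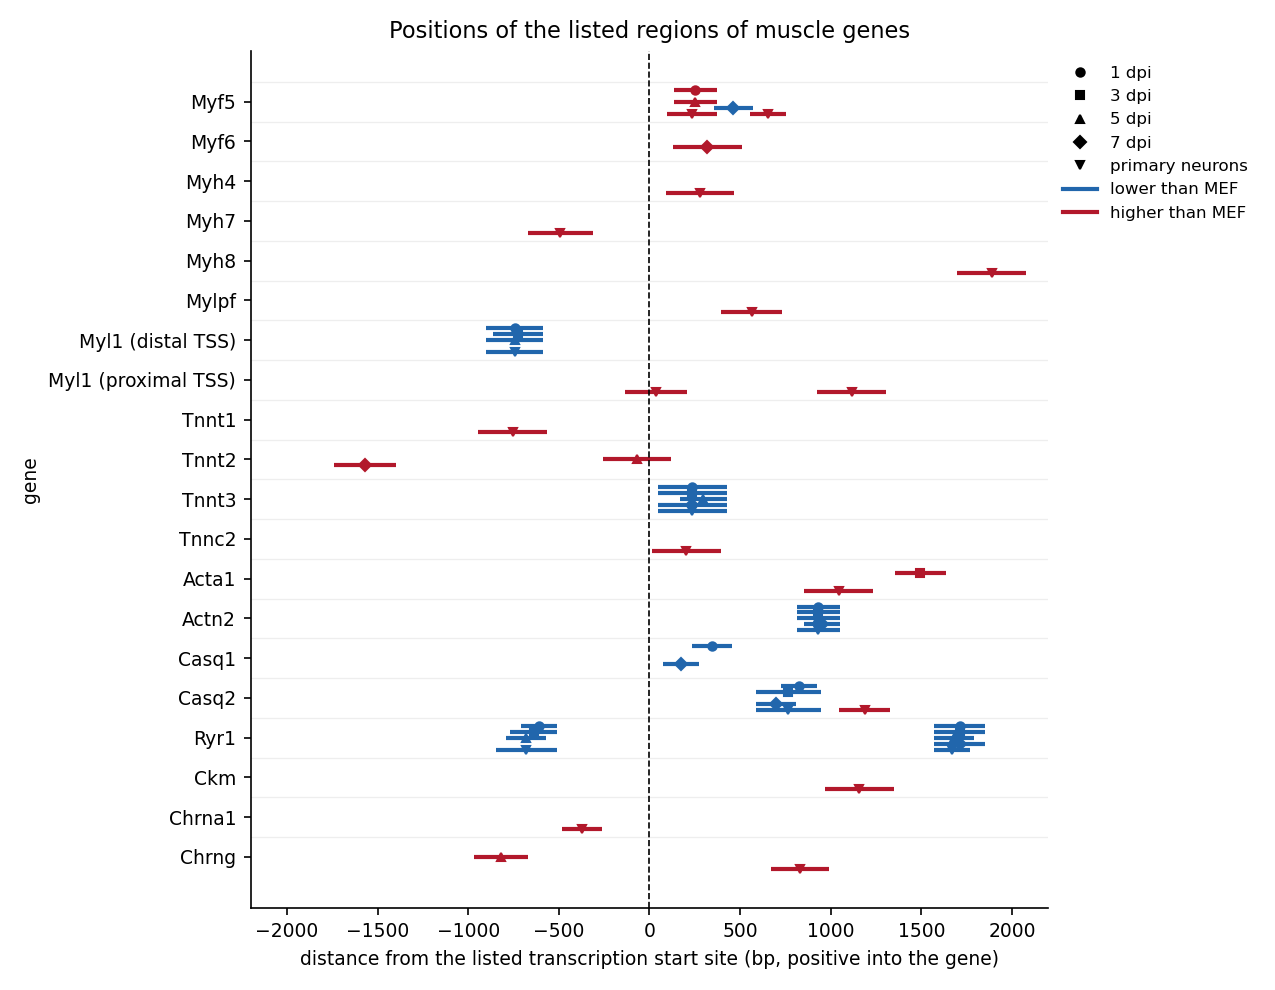
Position of each listed region (bar, with a marker at its centre for the library) relative to the TSS it was assigned to (horizontal axis, bp, positive into the gene) for the listed muscle genes (vertical axis), lower than MEF in blue and higher in red. Blue bars of Tnnt3, Actn2 and Ryr1 stack at the same place in 5 comparisons, and red and blue bars adjoin at Myf5 and Casq2.

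Set beside all genes, the share of the muscle genes was above the background in some lists and at or below it in others. At 1 dpi 6 of 37 (16.2%) were lower, where 10.6% of all 26220 genes were, and 1 (2.70%) was higher, beside 1.77%. At 3 dpi 5 were lower beside 13.2%, and 1 (2.70%) was higher beside 5.23%. At 5 dpi 4 (10.8%) were lower beside 10.7%, and 3 (8.11%) were higher beside 3.85%. Up to 5 dpi these shares rest on 1 to 6 genes, and a single gene moves each by 2.70 points. At 7 dpi 6 (16.2%) were lower beside 8.87%, and 2 (5.41%) were higher beside 12.4%. In primary neurons 5 were lower beside 15.3%. The higher list of primary neurons held the most members: 13 of 37 (35.1%) beside 20.4% of all genes. Of those 13, 10 (76.9%) were listed higher in no induced neuron library, the exceptions being Myf5, Acta1 and Chrng. Among all 5353 genes of that list the share was 71.4%, close to that of the muscle genes. With a deposited p of at most 1e-05 this count was 6 of 37 (Casq2, Chrng, Ckm, Myf5, Myl1 and Mylpf), beside 9.33% of all genes under the same limit. Under that limit the other higher lists held 0 members of 1 dpi beside 0.717%, 0 of 3 dpi beside 1.1%, 2 of 5 dpi (Tnnt2 and Chrng) beside 1.43% and 1 of 7 dpi (Tnnt2) beside 4.4%. The lower lists held 0 of 1 dpi beside 2.17%, 1 of 3 dpi (Tnnt3) beside 3.39%, 1 of 5 dpi (Ryr1) beside 2.31%, 0 of 7 dpi beside 2.44% and 2 of primary neurons (Ryr1 and Tnnt3) beside 5.95%. The repeated lower segment of Actn2 thus passed the authors' limit in every comparison and this stricter limit in none. The shares of the muscle genes were not tested against the background.

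**Figure D3:**
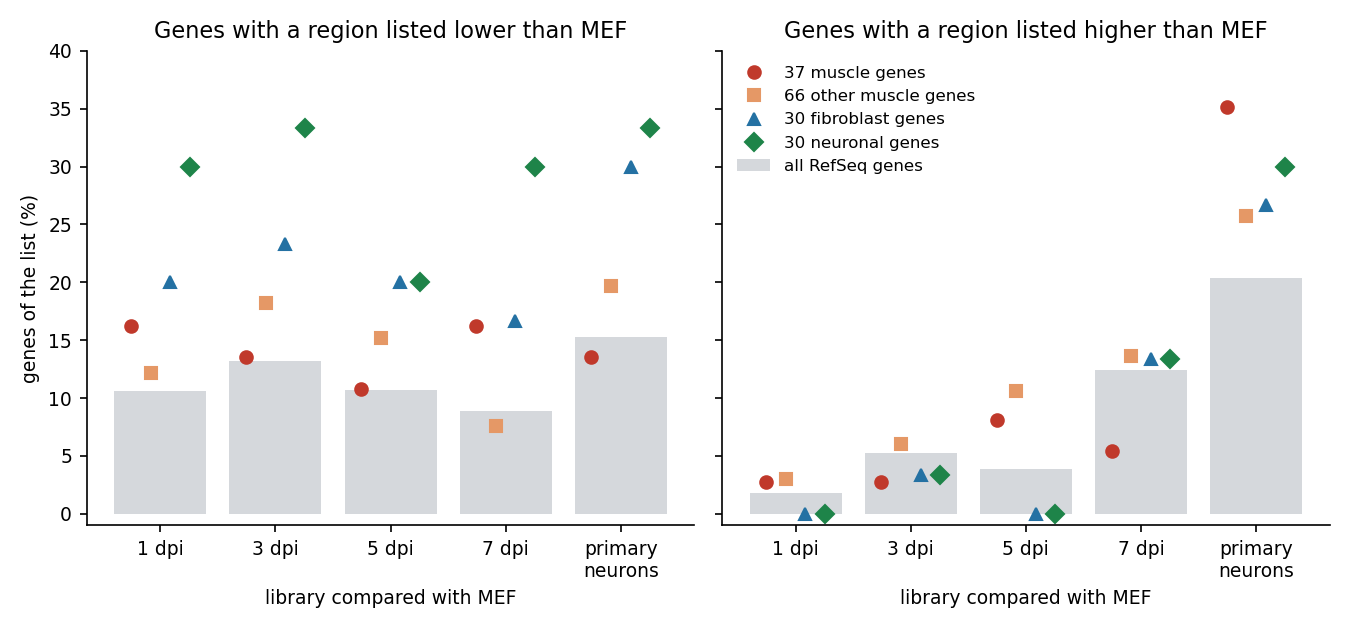
Share of each gene list (vertical axis, percent) with a region listed lower (left) or higher (right) than MEF in the 5 comparisons (horizontal axis), for the muscle genes, the other muscle genes, fibroblast genes, neuronal genes and all 26220 genes (grey bars). The muscle genes reach 35.1% in the higher list of primary neurons, where all genes are at 20.4% and 30 neuronal genes at 30%.

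Other gene lists moved with that share. In the higher list of primary neurons stood 17 of 66 further muscle genes (25.8%), 8 of 30 fibroblast genes (26.7%) and 9 of 30 neuronal genes (30%), so the lists of other cell types were also above the background of 20.4%. Among genes lower than MEF, fibroblast genes made up 16.7% to 30% and neuronal genes 20% to 33.3% of their lists over the 5 comparisons, beside 10.8% to 16.2% for the 37 muscle genes. Of all genes 8.87% to 15.3% were listed lower. In each comparison the share listed lower was larger among the neuronal genes, and also among the fibroblast genes, than among the muscle genes. This is a description of counts without a test.

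The 66 further genes of the muscle program cover regulators, membrane and junction proteins, heart isoforms and glycolytic enzymes. Lower than MEF were 8 (12.1%) at 1 dpi beside 10.6% of all genes, and 12 (18.2%) at 3 dpi beside 13.2%. At 5 dpi they were 10 (15.2%) beside 10.7%, at 7 dpi 5 (7.58%) beside 8.87%, and in primary neurons 13 (19.7%) beside 15.3%. Higher than MEF, in the same order, were 2 (3.03%), 4 (6.06%), 7 (10.6%), 9 (13.6%) and 17 (25.8%). All genes stood at 1.77%, 5.23%, 3.85%, 12.4% and 20.4% in those higher lists. These shares were not tested. Tnni3, the cardiac troponin I, had the most reads, 38 in primary neurons and 26 at 5 dpi, against 1 in MEF each time. Jph2, which ties the sarcoplasmic reticulum to the surface membrane, had 18 reads at 1 dpi and 24 at 5 dpi against 0. In another region it had 20 against 0 in primary neurons. Tcap, a cap protein of titin, had 19 at 3 dpi and 17 at 7 dpi against 0, and 12 against 0 at 5 dpi in another region. Myot, a Z disc protein, had 25 against 0 in primary neurons. Second in their lists were Myh6 with 12 at 1 dpi and Ankrd2 with 12 at 3 dpi, level with Stac3 and Tpm1, all against 0. At 7 dpi it was Mef2a with 14 against 0, level with Msc and Smpx. Mef2a also had 12 against 0 at 5 dpi in another region, and Tpm1 had 10 against 0 at 7 dpi. On the lower side Pax7, the factor of muscle stem cells, had 1 read at 1 dpi and 0 at 3 and 7 dpi against 17 in MEF. Within the stretch listed at 3 dpi, Pax7 also had 0 against 12 at 5 dpi and in primary neurons. Eno3, the muscle enolase, had 0 against 13 at 1, 3, 5 and 7 dpi and in primary neurons. In another region it had 0 against 12 at 3 dpi and in primary neurons. Other genes stood on both sides of MEF in separate regions. Cacna1s, the voltage sensor that opens the Ryr1 channel, had 0 against 15 at 3, 5 and 7 dpi as well as in primary neurons. Elsewhere in the same promoter it had 11 against 0 at 5 dpi and 12 against 0 in primary neurons. Six4, a regulator upstream of the MyoD family, had 0 against 14 in those same 4 libraries, and in another region 13 against 0 in primary neurons. Klhl41, which stabilises sarcomere proteins, had 4 against 25 at 3 dpi, but 16 against 1 at 5 dpi and 18 against 0 in primary neurons in a region further into the gene. As with Myf5 and Casq2, the direction listed for these genes depends on the stretch.

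The listed regions lay more often inside the gene than upstream. Of the 30 lower regions 22 (73.3%) were downstream of the TSS, 8 upstream and 0 across it, and of the 22 higher regions 15 (68.2%) were downstream, 5 upstream and 2 across it. Over all genes 49.1% of 16721 lower and 49.3% of 12838 higher regions were downstream. Segments listed in several comparisons count each time, so Actn2, Tnnt3 and Ryr1 weigh heavily in the first share. Of the 28 segments 23 overlapped the RefSeq span of their own gene. Whether a segment is exonic or intronic was not determined here.

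Motifs known from muscle promoters were searched on both strands of the windows. The E-box CAGCTG, bound by the MyoD family, was present in 13 of 36 muscle windows (36.1%) and in 16.3% of all 32851 windows. TATAAA was in 33.3% beside 13.6%, the M-CAT motif CATTCC in 27.8% beside 14.7%, and the CArG box, the site of serum response factor, in 11.1% beside 1.63%. Of the 31 matched genes 12 have the E-box: Acta1, Casq1, Chrna1, Chrng, Ckm, Des, Mybpc1, Myh4, Myl1, Mylpf, Tnni1 and Tnnt2. The Myl1 window lies at its distal start, and its proximal start has no window here. A match describes letters in a window and not a bound site. The motif matches were not compared with the methylation values.

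Peaks, called by the authors separately in each library, give a view that does not depend on MEF. Over the 6 libraries 50 peaks were assigned to 14 of the 37 genes (37.8%), beside 38.5% of all genes with a peak in any library. In MEF 3 members (8.11%) had a peak, beside 6.9% of all genes, and in primary neurons 6 (16.2%), beside 16.8%. In induced neurons the members with a peak numbered 2 (1 dpi, 5.97% of all genes), 2 (3 dpi, 4.51%), 5 (5 dpi, 11.1%) and 13 (7 dpi, 29.2%). The 13 members at 7 dpi are 35.1% of the set, and that library had 14091 peaks against 1447 to 6636 in the others. Of the 50 peaks 30 were intergenic, 19 in gene bodies and 1 in a promoter, and 20 lay over 100 kb from the TSS of the gene named.

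The only promoter peak was that of Myf5 in primary neurons (chr10:107485540-107486019), with 42 tags at the summit and a fold enrichment of 6.94, the authors' score; 0.622% of all genes had a promoter peak in that library. No member had a promoter peak in MEF, where 0.195% of all genes had one, nor in induced neurons, where the shares of all genes were 0.24%, 0.107%, 0.461% and 1.73% in order of time. It overlaps all 5 listed regions of Myf5, and no other listed region of the set overlaps a peak of its gene. Hence the peak call and the region lists both place captured DNA just inside Myf5 in primary neurons, from the same library. Myh4 had a gene body peak at about 15 kb from its start (chr11:67252866-67253643) in 5 libraries, with folds of 5.36 in MEF and 10.3 in primary neurons, and of 8.30, 5.60 and 9.68 in the 1, 5 and 7 dpi libraries. At 3 dpi none was called there. MEF thus had this peak as well, unlike the Myh4 promoter region, where it had 0 reads.

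Among peaks of the set, the highest folds belong to peaks assigned to Myom2, an M-band protein, that lie far from it. Myom2 took 18 of the 50 peaks, 17 of them intergenic. A peak 462 kb from its TSS (chr8:15519439-15520385) had folds of 13.7 in MEF and 30.5 in primary neurons, and of 42.9, 35.6 and 17.7 in the 1, 3 and 5 dpi libraries, and none was called at 7 dpi. Another, 516 kb away (chr8:15573195-15574206), had a fold of 10.5 in primary neurons and folds of 7.77, 8.07, 13.1 and 17.3 in induced neurons in order of time, and none was called in MEF. The nearest RefSeq gene to both is Csmd1, 372 kb and 318 kb away, so these peaks are not values of Myom2 itself. Among peaks assigned to the 37 genes, the 3 highest folds of a library also included that of Ttn, the giant elastic filament, at 3 dpi (gene body, 8.99-fold). Also among them were Mef2c, the MEF2 factor, at 5 dpi (intergenic and 367 kb from its TSS, 9.92-fold) and Neb, the thin filament ruler, at 7 dpi (intergenic, 7.84-fold). In MEF they included Myh8 (5.95-fold), classed as intergenic although the peak overlaps the RefSeq span of Myh4.

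**Figure D4:**
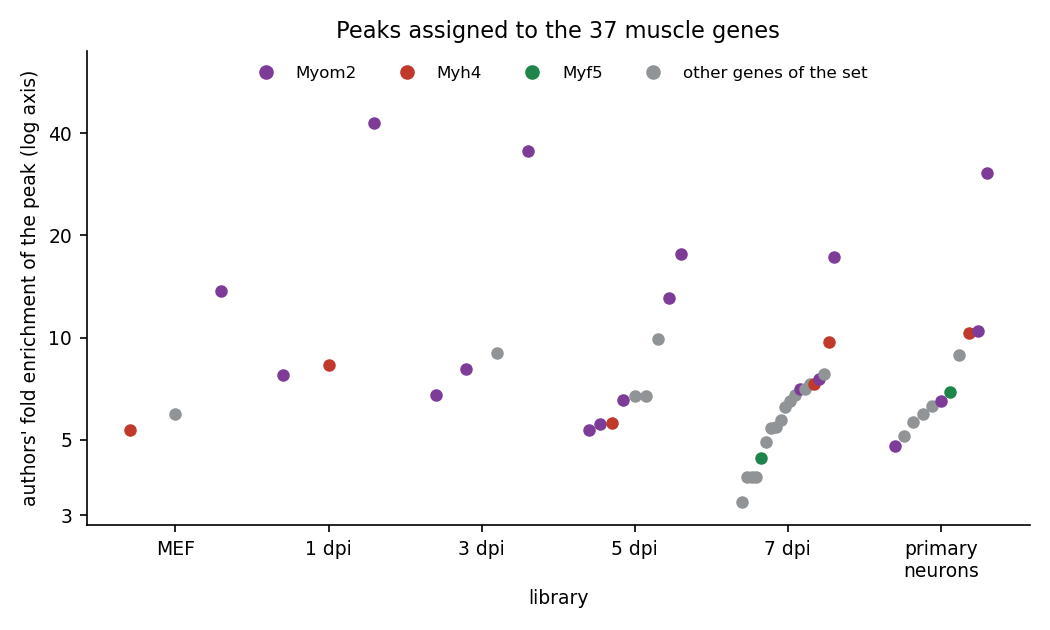
Fold enrichment of each peak assigned to the muscle genes (vertical axis, log scale, the authors' score) in the 6 libraries (horizontal axis), 1 point per peak, with Myom2, Myh4 and Myf5 in colour. The highest point in every library is a Myom2 peak, from 13.7 in MEF to 42.9 at 1 dpi.

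Of the 18 genes in no promoter list, 7 had a peak assigned to them: Myod1, Mef2c, Myh1, Myh3, Ttn, Neb and Myom2. The other 11, Myog, Myh2, Myl4, Tnni1, Tnni2, Tnnc1, Actc1, Des, Mybpc1, Mybpc2 and Myom1, had neither a listed region nor an assigned peak. Yet the peaks assigned to Myh1 (chr11:67189180-67189787) overlap the RefSeq span of Myh2 and not that of Myh1. Myog, the factor that drives terminal differentiation, and Myod1, the factor that converts fibroblasts to muscle, thus had no promoter region listed in either direction. The tables hold no value for a promoter that was not listed, and without scaling at least 11 reads against 0 were needed to reach p of at most 0.0001. Differences from MEF, large ones included, could thus go unlisted where reads are few, and the absence of these 18 genes from the lists does not show methylation equal to that of MEF.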

How the data were processed

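MeDIP-seq was analysed in 6 mouse libraries, 1 per group, grouped by the sample titles and cell type labels. Reads were handled with CASAVA and Bowtie2 2.1.0 on mm10, per the submitters' processing notes; for the peak caller, the test and its limits nothing is given in the sources used here. Per the labels, an input library served all 6 and was not analysed here. The labels of the 3, 5 and 7 dpi samples cite the higher list of another comparison, so libraries were matched by the column names of the tables.

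In the tables for 1, 3 and 5 dpi the authors deposited whole read counts per region. For 7 dpi and primary neurons they deposited a scaled signal, in which 1 read is worth 1.15 at 7 dpi and 0.866 in its MEF column, and 0.966 in primary neurons and 1.04 in its MEF column; after division by these values, 100% of entries up to 20 reads came out whole within 0.1 read. Reads in the text are whole reads and folds use the deposited values. Each deposited region also has the authors' log2 fold change, p-value and q-value. The deposited peak lists give a fold enrichment as a ratio, summit tags as a count and the −log10 of a q-value; these are the authors' scores and only describe peaks. Library totals are unknown here; the reads of a region are its depth.

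With 1 library per group no test between conditions was made. A gene counts as higher or lower where the authors listed a region of it. Nearly all listed regions have a p of at most 0.0001. A ratio to 1 to 3 reads carries an exact 95% interval from the Clopper-Pearson bounds of the share of reads; against 0 reads, "at least" sets that library to 3 reads in the region. Both cover counting error only, since reads are not independent molecules. Regions of a gene that overlap and share a direction form a segment; peaks of different libraries that overlap by at least 1 bp form a locus. Background shares are over 26220 genes. Names, gene spans and promoter sequences are RefSeq's for GRCm38.p6, whose coordinates are those of mm10.

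The members and lists were chosen with earlier results of these data known. Every member is accounted for; of the 66 other muscle genes the 2 with the most reads in each list are named (their ties, and their regions in other lists, were added after the values were seen), and of peaks every promoter peak and the 3 of highest fold per library. Python 3.11.15, numpy 2.4.6, scipy 1.17.1, pandas 2.3.3 and matplotlib 3.10.9 were used, and the scripts were tested on simulated data.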

Additional observations from a re-analysis of the deposited data

Results flagged for a closer look

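Myf5 differed in direction between libraries under the same contrast with MEF. Its region at chr10:107485561-107485780 had 0 reads at 7 dpi against 13 in MEF, whereas its adjoining regions had 14 against 0 at 1 and 5 dpi and 23 against 0 in primary neurons. The regions overlap by 20 bp and are not the same stretch, each group has 1 library, and the difference between libraries was not tested.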

How the results depend on the processing

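Counts of members are limited by few reads. With a deposited p of at most 1e-05 in place of all listed regions, the members lower than MEF numbered 0, 1, 1 and 0 in the 1, 3, 5 and 7 dpi libraries and 2 in primary neurons, and those higher numbered 0, 0 and 1 in the 1, 3 and 7 dpi libraries and 6 in primary neurons; the limit itself removes regions of few reads. With at least 13 reads in the higher library, or only regions within 1 kb of the TSS, the members higher were 0 at 3 dpi and 1 at 7 dpi under either setting, and the other 8 counts moved by at most 2. Matching synonyms changed none of the 10 counts, nor did a G-test on unscaled reads for the 7 dpi and primary neuron lists. With peaks of at least 10-fold, members with a peak were 2 in primary neurons and 1 in each of the other libraries. With promoter peaks alone they were 1 in primary neurons and 0 in each of the others. Without intergenic peaks they were 1 in MEF, 1, 1, 3 and 6 in the 1, 3, 5 and 7 dpi libraries. Counting any peak within 2 kb of the gene, a setting chosen after seeing the data, gave 1 at 3 dpi and 8 at 7 dpi. The number of peaks shared between libraries was the same with an overlap of 50% of the shorter peak. No paired analysis was possible because each group has 1 library, and for the same reason no replicate could be left out.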
